A study of Mus musculus with 12 samples.

Results

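The 29 genes described here are transcripts that kidney epithelium and its surroundings are known to change during tubular injury and repair, beyond the markers most often used for that purpose. They were taken from a list of gene symbols, each represented by the probe set that was brightest on average among those annotated with that symbol alone. By this rule 28 of the 29 were measured, among 19934 genes in all. Spp1, which encodes osteopontin, had no probe set annotated with that symbol alone in the annotation used and was not analysed here. The rule uses the values of these arrays only to pick the brightest probe set, and 2 of the 28 genes had several. The list was drawn up with earlier results of these data known, so it is not an independent sample of genes.

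An injured tubular cell loses its brush border, flattens and takes on features of a less differentiated epithelium. It builds a different intermediate filament network of keratins and vimentin, displays adhesion molecules such as CD44 and VCAM-1, and turns on transcription factors used in nephron development, among them SOX9 and SOX4. Injured tubules also release growth factors, protease inhibitors, clusterin, ceruloplasmin and fibrinogen chains, which act on neighbouring tubules, on fibroblasts and on blood-derived cells.

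Whole kidney RNA was measured on 12 Affymetrix mouse gene arrays, with 4 female mice of the C57BL/6 background in each of 3 groups, all on a high-protein diet for 2 months. The mutants were Mut -/- ;TgINS-Alb-Mut, which lack the mitochondrial enzyme methylmalonyl-CoA mutase, encoded by Mut (now Mmut), and carry a Mut transgene named for the albumin promoter, a promoter that is most active in hepatocytes. The controls were Mut +/- mice, with 1 intact allele, and Mut +/+ mice. The labels name the transgene in the mutants alone, so its effects and those of the missing enzyme cannot be told apart, and no group without the high-protein diet was measured. Methylmalonic acidemia is the disease that follows from lack of this enzyme, and the study asked what changes in the kidney underlie its renal part. The groups are written Mut-/-, Mut+/- and Mut+/+ below.

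All values are RMA levels on a log2 scale, on which a difference of 1 is a 2-fold change. The medians of the arrays were 7.17 to 7.23, and any pair of arrays correlated at 0.982 to 0.995 across probe sets. Mmut itself read 8.20 to 8.47 on the Mut-/- arrays, 9.87 to 9.97 on the Mut+/- arrays and 10.47 to 10.60 on the Mut+/+ arrays, so the groups did not overlap, although the sources used here do not say where its probes lie relative to the deleted part. The tissue label was checked against 10 proximal tubule markers, whose mean level was 12.05 to 12.45 in Mut-/-, 12.31 to 12.34 in Mut+/- and 12.35 to 12.43 in Mut+/+ kidneys. All 28 measured genes had a mean of at least 6 in some group, as 15932 of the 19934 genes did. Krt20 and Timp1 reached that level only in Mut-/- kidneys, with means of 6.70 and 6.49. Their means were 5.85 and 5.79 in Mut+/- and 5.82 and 5.56 in Mut+/+ kidneys, so their fold values are taken over dim control levels. A gene was called changed at an adjusted p under 0.05 in limma, fitted on all genes and all 12 arrays. Because whole kidneys were used, a change in the share of a cell type and a change of RNA per cell cannot be told apart.

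In Mut-/- against Mut+/+ kidneys 6 of the 28 genes were called higher, which were Krt18, Tmsb10, S100a6, Anxa2, Cd44 and Lgals3. That is 21.4% of the genes, beside 2.96% of all genes called higher. None of the 28 was called lower, beside 6.69% of all genes, and at an unadjusted p under 0.05 the count of lower members was also 0, beside 15.2% of all genes. At an unadjusted p under 0.05 a total of 13 were higher, or 46.4%, beside 9.25% of all genes. The rises were small: the called differences ran from 0.31 to 0.56 on the log2 scale, that is from 1.24-fold to 1.48-fold. The fitted difference was positive for 24 of the 28, or 85.7%, beside 51.4% of all genes, and its median was 0.22 over the 28 and 0.00 over all genes. All 4 Mut-/- arrays lay above all 4 Mut+/+ arrays for 7 genes, or 25% of them, beside 5.35% of all genes. These were Krt20, Timp1, Anxa1, Lgals3, Cd24a, Tmsb10 and S100a6. For 0 of the 28 did all Mut-/- arrays lie below, beside 9.4% of all genes.

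**Figure D1:**
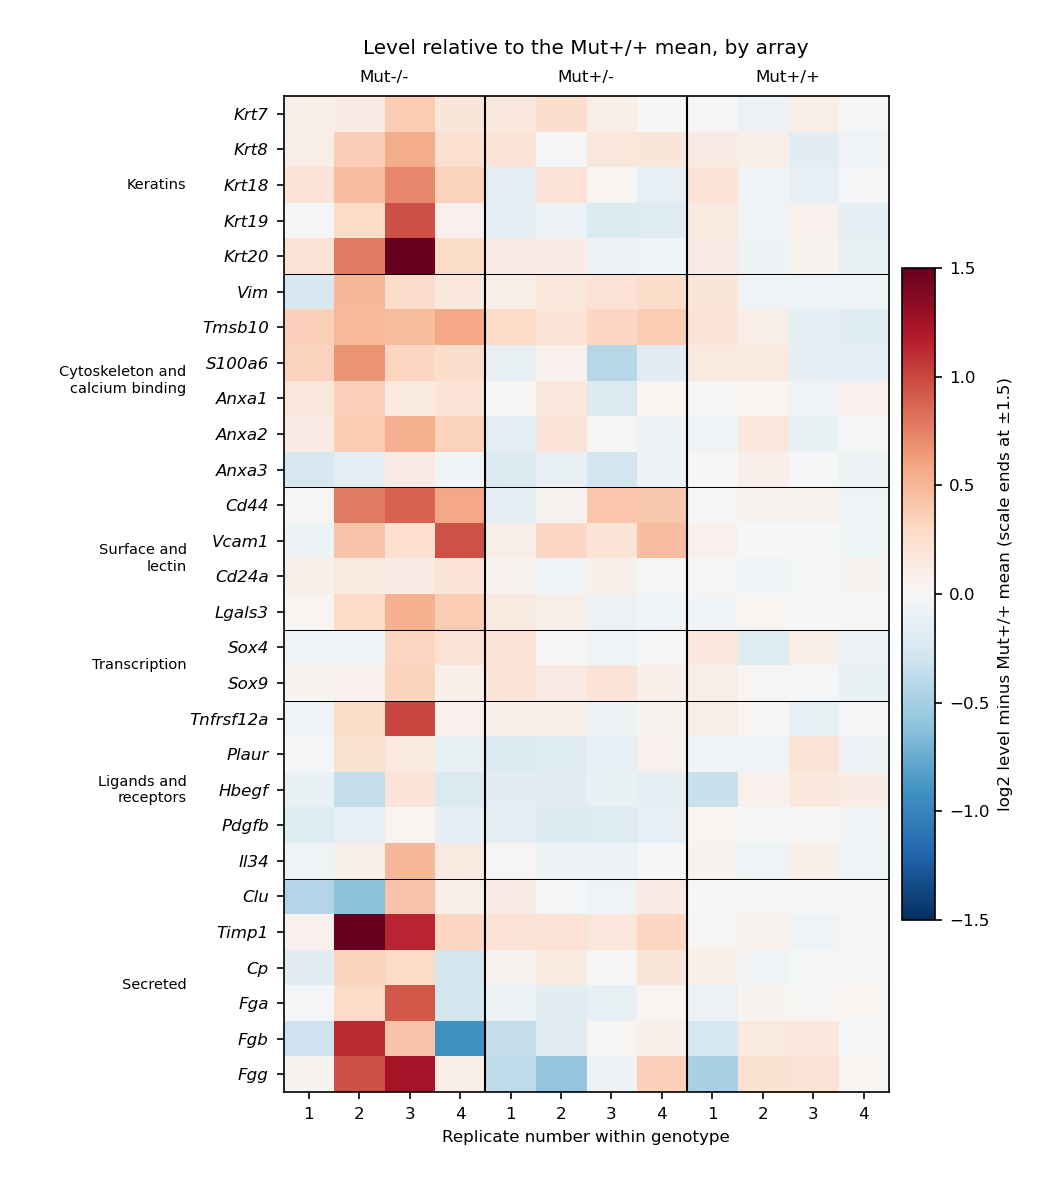
Level of each of the 28 measured genes on each of the 12 arrays, as the log2 level minus the Mut+/+ mean of that gene, with red above and blue below and the scale ending at ±1.5. Columns are the 4 replicates of Mut-/-, Mut+/- and Mut+/+, and rows are grouped by the role of the protein. The strongest red cells are those of Krt20 on Mut-/- replicate 3 and of Timp1 on Mut-/- replicate 2, and the column of Mut-/- replicate 1 is the palest of the 4 Mut-/- columns.

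The keratins measured here belong to simple epithelia. KRT8 and KRT18 pair into the filaments of tubular cells, KRT7 and KRT19 mark collecting duct and other ductal cells, and KRT20 is known from urothelium and gut. Krt18 rose in Mut-/- kidneys. It read 8.87, 9.14, 9.40 and 9.02 on Mut-/- replicates 1 to 4, against 8.88, 8.62, 8.56 and 8.65 on Mut+/+ replicates 1 to 4. Mut-/- replicate 1 thus lay just below Mut+/+ replicate 1, and the other Mut-/- arrays were above all Mut+/+ arrays. The difference was 0.43 (SE 0.11, limma adjusted p = 0.0282), a 1.34-fold rise. The call was lost when Mut-/- replicate 2 or 3 or Mut+/+ replicate 2, 3 or 4 was left out, with an adjusted p of up to 0.0804.

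Krt8, the partner of Krt18 and its neighbour on chromosome 15, averaged 11.08 ± 0.20 in Mut-/- and 10.76 ± 0.14 in Mut+/+ kidneys (SD, n = 4 each). Its difference of 0.31 just missed the threshold, with a limma adjusted p of 0.0556, and it was called without Mut-/- replicate 1 (adjusted p = 0.0228) or without Mut+/+ replicate 1 (adjusted p = 0.0495). Krt7 averaged 10.20 ± 0.13 in Mut-/- and 10.01 ± 0.08 in Mut+/+ kidneys, a difference of 0.19 (95% interval 0.03 to 0.35) with a limma adjusted p of 0.125. Krt19 and Krt20 were each highest on Mut-/- replicate 3. Krt19 read 8.03 there and 7.04 to 7.35 on the other Mut-/- arrays, against 6.93 to 7.20 in Mut+/+ kidneys, and its difference of 0.32 (limma adjusted p = 0.253) was 0.10 without that array (adjusted p = 0.531).

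Krt20 read 6.04, 6.60, 8.07 and 6.10 on Mut-/- replicates 1 to 4, against 5.95, 5.75, 5.88 and 5.71 on Mut+/+ replicates 1 to 4. Each Mut-/- array was above each Mut+/+ array, and replicate 3 stood 4.77-fold above the Mut+/+ mean while the others stood 1.17-fold to 1.71-fold above it. The difference of 0.88 (SE 0.32) was not called (limma adjusted p = 0.107). Without Mut-/- replicate 3 it was smaller, 0.43, and was called (adjusted p = 0.0398). Of 17 keratins measured, 1 was called higher and 0 lower, beside 2.96% and 6.69% of all genes.

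Vimentin, the thymosin TMSB10, the calcium-binding protein S100A6 and the annexins act at the cytoskeleton and the inner face of the plasma membrane. TMSB10 binds actin monomers. Tmsb10 had the lowest adjusted p of the 28 genes in this comparison. It read 7.76, 7.88, 7.87 and 7.98 on Mut-/- replicates 1 to 4, against 7.61, 7.50, 7.26 and 7.22 on Mut+/+ replicates 1 to 4. The groups did not overlap, and the spread was wider in Mut+/+ kidneys, where replicates 3 and 4 were lowest. The difference was 0.47 (SE 0.08, limma adjusted p = 0.00407), a 1.39-fold rise that was called whichever array was left out, with an adjusted p of at most 0.0156. A second, dimmer probe set of Tmsb10 averaged 7.76 ± 0.11 in Mut-/-, 7.56 ± 0.08 in Mut+/- and 7.25 ± 0.19 in Mut+/+ kidneys (SD, n = 4 each).

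S100A6, or calcyclin, is known from proliferating cells and from fibroblasts. S100a6 read 7.86, 8.19, 7.84 and 7.78 on Mut-/- replicates 1 to 4, against 7.66, 7.65, 7.38 and 7.37 on Mut+/+ replicates 1 to 4. The groups did not overlap, and Mut-/- replicate 2 was the highest array. The difference was 0.40 (SE 0.11, limma adjusted p = 0.0385), a 1.32-fold rise. It was lost without Mut-/- replicate 1 or 2, Mut+/- replicate 1 or 4, or Mut+/+ replicate 2, 3 or 4, with an adjusted p of up to 0.122. Of 15 S100 genes measured, S100a6 was the 1 called higher, and 0 were called lower, beside 2.96% and 6.69% of all genes.

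Annexins bind acidic phospholipids in a calcium-dependent way. ANXA2 links membranes to actin and, with S100A10, binds plasminogen and its activator, while ANXA1 limits leukocyte recruitment. Anxa2 read 8.32, 8.58, 8.75 and 8.55 on Mut-/- replicates 1 to 4, against 8.15, 8.37, 8.10 and 8.20 on Mut+/+ replicates 1 to 4. Mut-/- replicate 1 lay inside the Mut+/+ range and the other Mut-/- arrays lay above it. The difference was 0.35 (SE 0.09, limma adjusted p = 0.0339), a 1.27-fold rise. It was lost without Mut-/- replicate 2, 3 or 4 or Mut+/+ replicate 1, 3 or 4 (adjusted p up to 0.0911).

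Anxa1 read 7.10 to 7.31 in Mut-/- kidneys and 6.90 to 7.02 in Mut+/+ kidneys, without overlap. Its difference of 0.22 had a limma adjusted p of 0.0899, and it was called without Mut+/- replicate 3 (adjusted p = 0.0466). Anxa3, whose annexin is abundant in neutrophils, averaged 8.28 ± 0.15 in Mut-/- and 8.36 ± 0.06 in Mut+/+ kidneys (SD, n = 4 each), a difference of -0.08 (95% interval -0.23 to 0.08). Among 12 annexins measured, 2 were called higher and 0 lower, beside 2.96% and 6.69% of all genes. The other called annexin was Anxa4, which is not on the list of 29, with a difference of 0.23 (SE 0.06, limma adjusted p = 0.0204) that was lost without Mut+/+ replicate 3 (adjusted p = 0.059). Vim, whose protein vimentin forms the intermediate filaments of mesenchymal and dedifferentiated tubular cells, read 10.09, 10.82, 10.59 and 10.48 on Mut-/- replicates 1 to 4, against 10.26 to 10.51 in Mut+/+ kidneys. Replicate 1 was below every Mut+/+ array and replicates 2 and 3 were above them, and the difference of 0.16 (95% interval -0.09 to 0.42, limma adjusted p = 0.449) was 0.30 without replicate 1 and 0.05 without replicate 2.

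Of the proteins displayed at the cell surface, CD44 binds hyaluronan and osteopontin, VCAM-1 binds leukocyte integrin α4β1, and CD24 is a small anchored glycoprotein of immature tubular cells. Galectin-3, encoded by Lgals3, is a lectin that binds their sugars. Cd44 read 6.87, 7.63, 7.73 and 7.43 on Mut-/- replicates 1 to 4, against 6.82, 6.90, 6.90 and 6.78 on Mut+/+ replicates 1 to 4. Mut-/- replicates 2, 3 and 4 were 1.49-fold to 1.84-fold above the Mut+/+ mean, while replicate 1 was within the Mut+/+ range. The difference was 0.56 (SE 0.16, limma adjusted p = 0.047), a 1.48-fold rise. The call was lost without Mut-/- replicate 2, 3 or 4, Mut+/- replicate 2, 3 or 4, or any Mut+/+ array, with an adjusted p of up to 0.124. Without Mut-/- replicate 1 the difference was 0.75 (adjusted p = 0.00368).

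Lgals3 read 9.12, 9.39, 9.62 and 9.47 on Mut-/- replicates 1 to 4, against 9.05, 9.12, 9.08 and 9.10 on Mut+/+ replicates 1 to 4. Mut-/- replicate 1 was level with the highest Mut+/+ array to 2 decimals, and the other Mut-/- arrays were clearly above. The difference was 0.31 (SE 0.09, limma adjusted p = 0.0385), a 1.24-fold rise, and it was lost without Mut-/- replicate 2, 3 or 4, Mut+/- replicate 4 or any Mut+/+ array (adjusted p up to 0.0888). Galectins, thymosins, tissue inhibitors of metalloproteinases and Sox factors were also counted as a family list. Of 25 measured, 3 were called higher (Tmsb10, Lgals3 and Lgals1) and 1 lower (Lgals8), beside 2.96% and 6.69% of all genes. Lgals1, the gene of galectin-1, differed by 0.25 (SE 0.07, limma adjusted p = 0.027) and was lost without Mut-/- replicate 2 or 4 or Mut+/+ replicate 3 or 4, while Lgals8, the gene of galectin-8, differed by -0.26 (SE 0.05, limma adjusted p = 0.00983).

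Vcam1 read 7.85, 8.35, 8.18 and 8.88 on Mut-/- replicates 1 to 4, against 7.86 to 7.99 in Mut+/+ kidneys. Replicate 4 was the highest and replicate 1 was just below the Mut+/+ range. The difference of 0.39 (95% interval 0.05 to 0.74) was not called (limma adjusted p = 0.143), and it was called without Mut-/- replicate 1 (0.55, adjusted p = 0.0241) and was 0.21 without replicate 4 (adjusted p = 0.27). Cd24a read 12.01 to 12.13 in Mut-/- and 11.89 to 11.97 in Mut+/+ kidneys, without overlap, and its difference of 0.14 had a limma adjusted p of 0.0802.

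**Figure D2:**
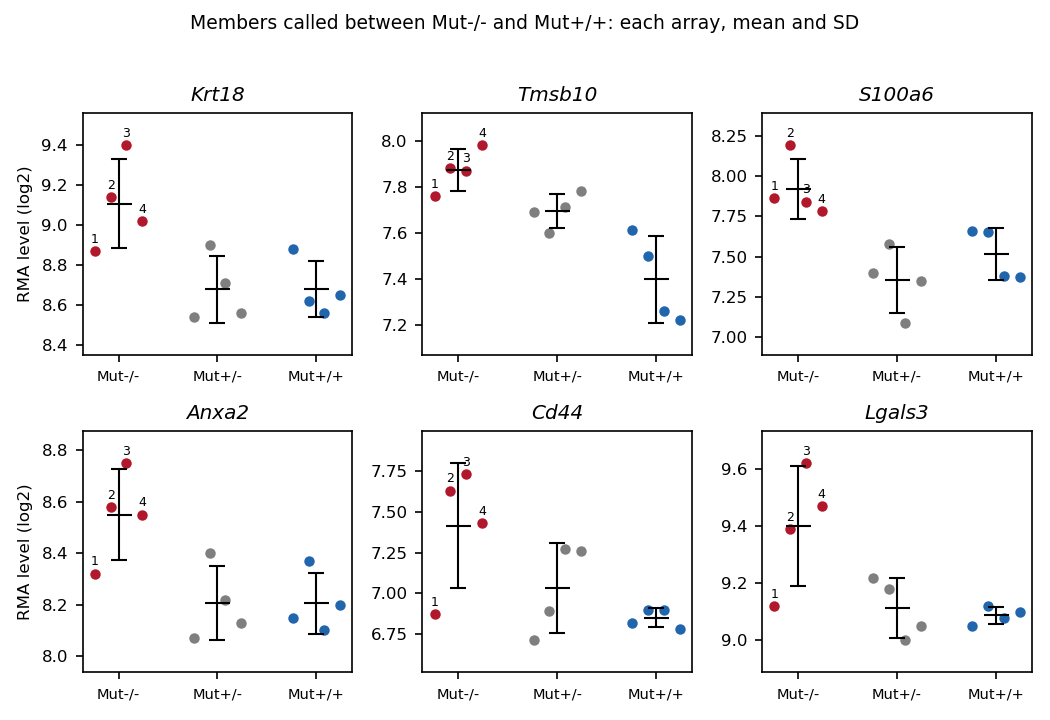
RMA level on a log2 scale of the 6 genes called higher in Mut-/- than in Mut+/+ kidneys, with 1 point per array, the mean as a wide bar and the SD as whiskers (n = 4 per group). Numbers beside the Mut-/- points give the replicate. Replicate 1 is the lowest Mut-/- point in all panels except S100a6, and the Mut-/- and Mut+/+ points do not overlap for Tmsb10, S100a6 and Lgals3.

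To show what lies directly upstream of the called genes, the 150 bases before the start listed by RefSeq are given for each, 5′ to 3′ on the strand of the gene, from assembly GRCm38.p6. Capitals mark matches, on either strand, to the letters of an AP-1 site (TGANTCA), an Sp1 site (GGGCGG) or a TATA box (TATAAA).
Krt18 (chr15:102028066-102028215, + strand): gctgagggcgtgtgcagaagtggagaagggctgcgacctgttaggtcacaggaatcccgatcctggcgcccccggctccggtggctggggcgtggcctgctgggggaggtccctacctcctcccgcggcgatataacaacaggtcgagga
Tmsb10 (chr6:72958749-72958898, - strand): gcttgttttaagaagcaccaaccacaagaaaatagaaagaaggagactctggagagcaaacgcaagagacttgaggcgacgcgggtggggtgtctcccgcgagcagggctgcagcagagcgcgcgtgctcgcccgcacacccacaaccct
S100a6 (chr3:90612744-90612893, + strand): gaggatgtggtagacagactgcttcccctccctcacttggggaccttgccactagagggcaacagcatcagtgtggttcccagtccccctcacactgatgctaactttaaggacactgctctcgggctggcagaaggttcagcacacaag
Anxa2 (chr9:69453533-69453682, + strand): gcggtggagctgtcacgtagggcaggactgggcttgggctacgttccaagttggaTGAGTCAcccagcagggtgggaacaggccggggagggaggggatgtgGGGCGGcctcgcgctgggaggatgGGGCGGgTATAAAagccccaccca
Cd44 (chr2:102901666-102901815, - strand): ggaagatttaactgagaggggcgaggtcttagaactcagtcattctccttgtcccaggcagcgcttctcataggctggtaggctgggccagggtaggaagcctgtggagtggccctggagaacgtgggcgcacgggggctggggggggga
Lgals3 (chr14:47373710-47373859, + strand): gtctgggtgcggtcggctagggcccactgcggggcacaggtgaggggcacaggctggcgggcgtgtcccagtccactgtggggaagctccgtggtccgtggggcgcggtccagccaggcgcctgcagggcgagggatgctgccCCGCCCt

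Anxa2 held an AP-1 match at -95 to -89 from the listed start, Sp1 matches from -48 and from -24, and a TATA match from -17. Lgals3 held a reversed Sp1 match from -7. These letters were not in the windows of Krt18, Tmsb10, S100a6 and Cd44. Tmsb10 has 3 listed starts, of which the outermost was used, and the listed start of Cd44 is not that of its gene record. Among 32851 windows of this length in the same table, 4.24% held the AP-1 letters, 28.6% the Sp1 letters and 7.57% the TATA letters. Of the 20 listed genes with a promoter in the table, 2 held the AP-1 letters (Anxa2 and Plaur), 6 the Sp1 letters and 4 the TATA letters. A match is a description of the letters and not of binding.

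The transcription factors SOX9 and SOX4 act in nephron formation, and SOX9 reappears in surviving tubular cells after injury. Neither gene was called. Sox9 averaged 7.63 ± 0.14 in Mut-/- and 7.51 ± 0.09 in Mut+/+ kidneys (SD, n = 4 each), a difference of 0.13 (95% interval -0.02 to 0.28, limma adjusted p = 0.276). Sox4 averaged 7.32 ± 0.19 in Mut-/- and 7.22 ± 0.16 in Mut+/+ kidneys, a difference of 0.11 (95% interval -0.11 to 0.32, limma adjusted p = 0.575).

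The signalling members were 3 ligands and 2 receptors, and none of the 5 was called. Tnfrsf12a encodes the receptor for the cytokine TWEAK, and Plaur encodes the urokinase receptor. Tnfrsf12a read 8.53, 8.87, 9.60 and 8.66 on Mut-/- replicates 1 to 4, against 8.49 to 8.70 in Mut+/+ kidneys. Mut-/- replicate 3 was 2-fold above the Mut+/+ mean, replicate 2 was 1.21-fold above it, and the other Mut-/- arrays were inside the Mut+/+ range. The difference of 0.32 (95% interval -0.05 to 0.68, limma adjusted p = 0.275) was 0.09 without Mut-/- replicate 3 (adjusted p = 0.588). Plaur averaged 7.65 ± 0.15 in Mut-/- and 7.59 ± 0.13 in Mut+/+ kidneys (SD, n = 4 each), a difference of 0.06 (95% interval -0.13 to 0.25).

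Hbegf and Pdgfb had negative differences. HB-EGF activates the EGF receptor on tubular cells, PDGF-B acts on pericytes and fibroblasts, and IL-34 is a ligand of the macrophage receptor CSF1R. Hbegf averaged 8.29 ± 0.24 in Mut-/- and 8.42 ± 0.22 in Mut+/+ kidneys (SD, n = 4 each), a difference of -0.12 (95% interval -0.37 to 0.13). Pdgfb averaged 8.49 ± 0.09 in Mut-/- and 8.59 ± 0.03 in Mut+/+ kidneys, a difference of -0.10 (95% interval -0.21 to 0.01). Il34 read 8.29 on Mut-/- replicate 3 and 7.73 to 7.93 on the other Mut-/- arrays, against 7.73 to 7.87 in Mut+/+ kidneys, and its difference of 0.17 (95% interval -0.03 to 0.36, limma adjusted p = 0.297) was 0.06 without replicate 3 (adjusted p = 0.67).

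The receptors, ligands and binding partners of the 29 genes were counted as well. Of 31 partners measured out of 35 listed, 2 were called higher and 4 lower in Mut-/- than in Mut+/+ kidneys. This stands beside 2.96% of all genes higher and 6.69% lower. The median difference of the partners was -0.05. Csf1r, the IL-34 receptor, was lower by a difference of -0.64 (SE 0.15, limma adjusted p = 0.0171), which was lost without Mut+/+ replicate 2 (adjusted p = 0.053) or 4 (adjusted p = 0.0521). Plau, the urokinase that Plaur's product binds, was lower by a difference of -0.43 (SE 0.07, limma adjusted p = 0.0018). Mmp14, the gene of a membrane-bound metalloproteinase that cuts CD44, was higher by 0.42 (SE 0.12, limma adjusted p = 0.0373). The Mmp14 call was lost without Mut-/- replicate 2, 3 or 4, Mut+/- replicate 3 or 4, or Mut+/+ replicate 2, 3 or 4 (adjusted p up to 0.12). The 3 other called partners are named after their values were seen: Plat, the tissue plasminogen activator (-0.42, limma adjusted p = 0.00726), Egfr, an HB-EGF receptor (-0.27, limma adjusted p = 0.0369), and Erbb4, another HB-EGF receptor (0.32, limma adjusted p = 0.00595). The Egfr call was lost without Mut-/- replicate 4, Mut+/- replicate 1 or 4, or Mut+/+ replicate 2, 3 or 4 (adjusted p up to 0.112).

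Among the secreted members, TIMP-1 inhibits metalloproteinases, clusterin is an extracellular chaperone, ceruloplasmin oxidises iron, and the fibrinogen chains α, β and γ, encoded by Fga, Fgb and Fgg, form the clotting protein of plasma. None was called, and several had the widest spread of all 28 genes over the Mut-/- arrays. Timp1 read 5.62, 7.78, 6.70 and 5.88 on Mut-/- replicates 1 to 4, against 5.57, 5.61, 5.49 and 5.56 on Mut+/+ replicates 1 to 4. All Mut-/- arrays were above all Mut+/+ arrays, but replicate 1 was only just above the highest of them, whereas replicate 2 was 4.66-fold and replicate 3 was 2.2-fold above the Mut+/+ mean. The difference of 0.94 (SE 0.33, limma adjusted p = 0.0923) lay between 0.51 and 1.23 as arrays were left out. It was called without Mut-/- replicate 1 (adjusted p = 0.0229) and, narrowly, without Mut-/- replicate 4 (adjusted p = 0.05 after rounding), and it was smallest without replicate 2.

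The 3 fibrinogen genes lie next to each other on chromosome 3. Fga read 7.09, 7.39, 8.03 and 6.83 on Mut-/- replicates 1 to 4, against 7.02, 7.14, 7.12 and 7.13 on Mut+/+ replicates 1 to 4. Fgb read 7.50, 8.94, 8.24 and 6.89 on Mut-/- replicates 1 to 4, against 7.55, 7.96, 7.97 and 7.78 on Mut+/+ replicates 1 to 4. Fgg read 7.86, 8.79, 9.07 and 7.90 on Mut-/- replicates 1 to 4, against 7.33, 8.05, 8.04 and 7.85 on Mut+/+ replicates 1 to 4. For all 3 genes, Mut-/- replicates 2 and 3 were above every Mut+/+ array. Mut-/- replicate 4 was below every Mut+/+ array for Fga and Fgb, as was replicate 1 for Fgb, and replicates 1 and 4 lay within the Mut+/+ range for Fgg.

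The mean differences therefore had wide intervals. That of Fga was 0.23 (SE 0.18, limma adjusted p = 0.485), that of Fgb was 0.08 (SE 0.31, limma adjusted p = 0.913), and that of Fgg was 0.59 (SE 0.28, limma adjusted p = 0.209). Without Mut-/- replicate 3 they were 0.00 for Fga, -0.04 for Fgb and 0.37 for Fgg, and without replicate 4 they were 0.40, 0.41 and 0.75 in that order. A second, dimmer probe set of Fga read 7.02 on Mut-/- replicate 3 and 6.20 to 6.53 on the other Mut-/- arrays, against 6.41 to 6.56 in Mut+/+ kidneys, so its replicate 3 stood apart as well and its replicate 2 did not. The hepatocyte markers, 8 other genes whose products the liver makes, had mean levels of 6.70, 7.01, 6.89 and 6.67 on Mut-/- replicates 1 to 4 and 6.65 to 6.79 in Mut+/+ kidneys, with 0 of the 8 called. Their part in the fibrinogen values was not tested.

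**Figure D3:**
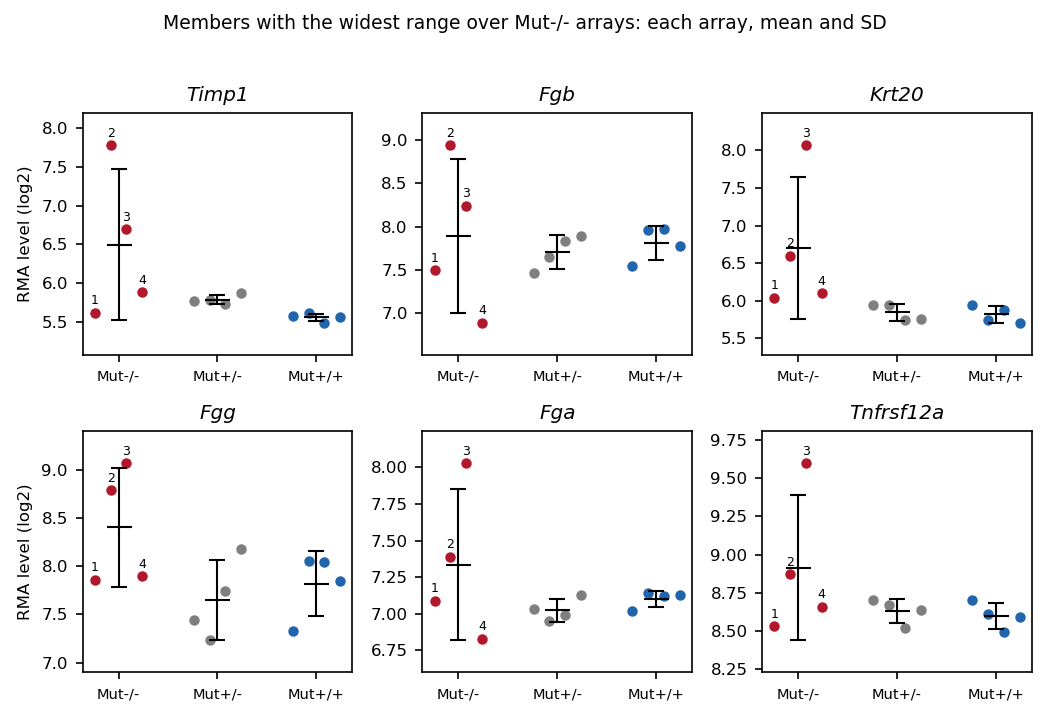
RMA level on a log2 scale of Timp1, Fgb, Krt20, Fgg, Fga and Tnfrsf12a, the 6 genes with the widest range over the Mut-/- arrays, with 1 point per array, the mean as a wide bar and the SD as whiskers (n = 4 per group). Numbers beside the Mut-/- points give the replicate. Replicate 2 is the highest Mut-/- point for Timp1 and Fgb, and replicate 3 is the highest for the other genes.

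The 3 fibrinogen genes were each highest on Mut-/- replicates 2 and 3 by their brightest probe sets. Their 150 bases before the RefSeq start are shown in the same way (GRCm38.p6). Here capitals mark, on either strand, the letters of an HNF1 motif (GTTAAT) or a C/EBP site (TTGCNNAA), the factors known to drive fibrinogen genes in hepatocytes.
Fga (chr3:83026003-83026152, + strand): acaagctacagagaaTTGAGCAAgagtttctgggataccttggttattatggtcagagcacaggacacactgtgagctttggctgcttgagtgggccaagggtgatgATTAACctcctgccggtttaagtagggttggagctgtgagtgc
Fgb (chr3:83049864-83050013, - strand): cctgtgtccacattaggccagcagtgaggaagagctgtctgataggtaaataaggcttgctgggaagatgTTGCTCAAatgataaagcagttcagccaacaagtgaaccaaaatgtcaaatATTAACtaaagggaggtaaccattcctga
Fgg (chr3:83007574-83007723, + strand): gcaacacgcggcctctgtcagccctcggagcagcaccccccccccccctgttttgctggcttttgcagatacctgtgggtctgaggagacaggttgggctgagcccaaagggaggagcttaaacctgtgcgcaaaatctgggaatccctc

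The windows of Fga and Fgb each held both sets of letters, with the HNF1 motif reversed at -43 to -38 in Fga and at -29 to -24 in Fgb. The C/EBP letters lay reversed at -135 to -128 in Fga and forward at -80 to -73 in Fgb. The window of Fgg held neither. Of all 32851 windows, 3.71% held the HNF1 motif and 5.46% the C/EBP letters, and 2 and 4 of the 20 listed genes with a promoter did. The part of these letters in the fibrinogen values was not tested.

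Clu and Cp completed the secreted group. Clu read 9.96, 9.79, 10.83 and 10.49 on Mut-/- replicates 1 to 4, against 10.38 to 10.42 in Mut+/+ kidneys. Replicates 1 and 2 were below and replicates 3 and 4 above every Mut+/+ array, so the difference of -0.14 (95% interval -0.50 to 0.23) averaged opposite deviations. Cp read 9.84, 10.33, 10.28 and 9.72 on Mut-/- replicates 1 to 4, against 9.94 to 10.07 in Mut+/+ kidneys, and its difference was 0.05 (95% interval -0.20 to 0.29). As with Fgb, replicates 2 and 3 were above and replicates 1 and 4 below every Mut+/+ array for Cp.

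The Mut+/- kidneys served as the second control. In Mut-/- against Mut+/- kidneys 1 of the 28 genes, S100a6, was called higher, or 3.57%, beside 1.07% of all genes, and 0 were called lower, beside 1.46%. S100a6 read 7.40, 7.58, 7.09 and 7.35 on Mut+/- replicates 1 to 4, all below the 7.78 to 8.19 of the Mut-/- arrays. The difference was 0.56 (SE 0.11, limma adjusted p = 0.0191), and it was lost without Mut+/- replicate 3 (adjusted p = 0.0543) or 4 (adjusted p = 0.0575). At an unadjusted p under 0.05, 11 genes were higher, or 39.3%, beside 6.3% of all genes, and 0 were lower, beside 9.11%. All 4 Mut-/- arrays were above all 4 Mut+/- arrays for Krt19, Krt20, Cd24a and S100a6, or 14.3% of the 28, beside 4.04% of all genes, and below for 0, beside 5.65%. The difference was positive for 24 of the 28 genes, beside 46.6% of all genes, with a median of 0.18 over the 28 and -0.01 over all genes.

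The 2 comparisons share the Mut-/- arrays, so the values of the 6 genes called against Mut+/+ are given for both. The Mut-/- minus Mut+/- difference was 0.43 for Krt18 (limma adjusted p = 0.0608), 0.34 for Anxa2 (limma adjusted p = 0.0735) and 0.29 for Lgals3 (limma adjusted p = 0.106). It was 0.38 for Cd44 (limma adjusted p = 0.275) and 0.18 for Tmsb10 (limma adjusted p = 0.334). Without Mut-/- replicate 1, Krt18, Cd44, Anxa2 and Lgals3 were called as well, with differences of 0.51, 0.57, 0.42 and 0.38. Krt18 was also called without Mut+/- replicate 2 (adjusted p = 0.0453).

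**Figure D4:**
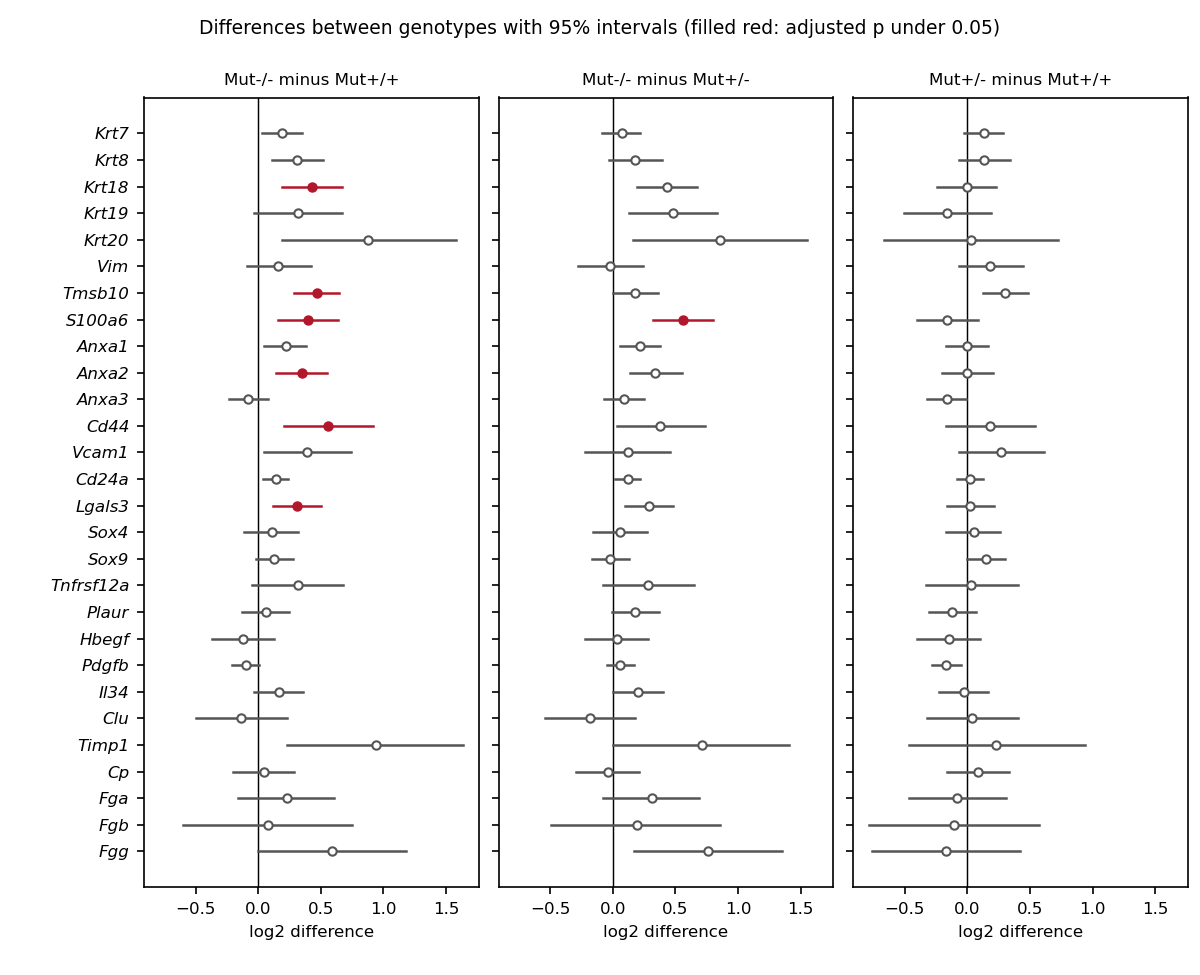
Fitted log2 difference of each of the 28 measured genes with its 95% interval (limma, 4 arrays per group), for Mut-/- minus Mut+/+, Mut-/- minus Mut+/- and Mut+/- minus Mut+/+. Filled red points have an adjusted p under 0.05, which 6, 1 and 0 genes reach in the 3 panels, and intervals are widest for Timp1, Krt20, Fgb and Fgg.

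In Mut+/- against Mut+/+ kidneys none of the 28 genes was called by limma, with 0 higher beside 0.0652% of all genes and 0 lower beside 0.0702%. At an unadjusted p under 0.05, 1 gene was higher (Tmsb10), beside 4.5% of all genes, and 2 were lower (Anxa3 and Pdgfb), beside 6.81%. Tmsb10 read 7.69, 7.60, 7.71 and 7.78 on Mut+/- replicates 1 to 4, a difference of 0.30 (95% interval 0.12 to 0.48, limma adjusted p = 0.213) from the Mut+/+ kidneys. Its Mut+/- levels thus lay above the Mut+/+ mean of 7.40, with replicate 2 just below the highest Mut+/+ array. All 4 Mut+/- arrays were above all Mut+/+ arrays for Vcam1 and Timp1, or 7.14% of the genes, beside 3.18% of all genes. They were below for Anxa3 and Pdgfb, again 7.14%, beside 5.26%. The differences of these 4 were 0.27 for Vcam1, 0.23 for Timp1, -0.16 for Anxa3 and -0.17 for Pdgfb, with limma adjusted p-values of 0.542, 0.838, 0.419 and 0.25. The fit pools the spread of all 3 groups, so the Mut-/- arrays enter these p-values. Timp1 had an SD of 0.06 in Mut+/- and 0.05 in Mut+/+ kidneys but 0.97 in Mut-/- kidneys, and the SE of its difference was 0.33. Its p-value is thus no measure of the spread within the 2 control groups. The median difference was 0.02 over the 28 genes and 0.01 over all genes.

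Ordered by group means, 12 of the 28 genes ran Mut-/- over Mut+/- over Mut+/+, an order seen in 22.5% of all genes, and 9 ran Mut-/- over Mut+/+ over Mut+/-, seen in 12.8%. Sox9, Vim and Cp were highest in Mut+/- kidneys with Mut-/- next, and Clu was highest in Mut+/- and lowest in Mut-/- kidneys. Anxa3, Pdgfb and Hbegf were highest in Mut+/+ and lowest in Mut+/- kidneys. Apart from S100a6 between Mut-/- and Mut+/- and the 6 called genes between Mut-/- and Mut+/+, no pair of groups differed past the threshold for any of the 28 genes. Cd44 split the Mut+/- kidneys, with 6.71 and 6.89 on replicates 1 and 2 and 7.27 and 7.26 on replicates 3 and 4. Havcr1, the gene of kidney injury molecule 1, read 6.25 on each of Mut+/- replicates 1 and 2 and 8.86 and 8.70 on replicates 3 and 4, and the mean level of 12 myeloid markers was 7.72, 7.87, 7.94 and 8.22 on Mut+/- replicates 1 to 4. Their part in the Cd44 values was not tested.

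The Mut-/- arrays differed among themselves more than the control arrays did in these genes. With 1 array per mouse as far as the labels say, differences between mice and between RNA or array preparations cannot be told apart. The median range over 4 arrays was 0.54 in Mut-/-, 0.19 in Mut+/- and 0.21 in Mut+/+ kidneys for the 28 genes, and 0.22, 0.17 and 0.19 in the same order for all genes. The Mut-/- range exceeded the Mut+/+ range in 27 of the 28 genes, or 96.4%, beside 59.9% of all genes, with Tmsb10 the exception (0.23 in Mut-/- and 0.39 in Mut+/+ kidneys). It exceeded the Mut+/- range in 26 genes, or 92.9%, beside 65.9% of all genes. The widest ranges were 2.16 for Timp1, 2.05 for Fgb, 2.03 for Krt20, 1.21 for Fgg and 1.19 for Fga, and the narrowest was 0.12 for Cd24a.

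Replicate 3 gave the highest Mut-/- value for 18 of the 28 genes, replicate 2 for 7, replicate 4 for 3 and replicate 1 for 0. Over all genes replicate 3 was highest for 36.7%, replicate 2 for 19.8%, replicate 4 for 20.2% and replicate 1 for 23.3%. Replicate 1 gave the lowest Mut-/- value for 20 of the 28 genes, or 71.4%, beside 28.3% of all genes. Against the 4 Mut+/+ arrays, replicates 1 to 4 were above all of them for 7, 22, 26 and 16 genes, that is for 25%, 78.6%, 92.9% and 57.1%. The shares of all genes were 22.4%, 23.3%, 35.4% and 21.9%. The median gene stood 0.00, 0.31, 0.43 and 0.17 above its Mut+/+ mean on replicates 1 to 4. Replicate 1 thus sat at the Mut+/+ level for the median gene, and on replicates 2 and 3 most of the genes lay above every Mut+/+ array.

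**Figure D5:**
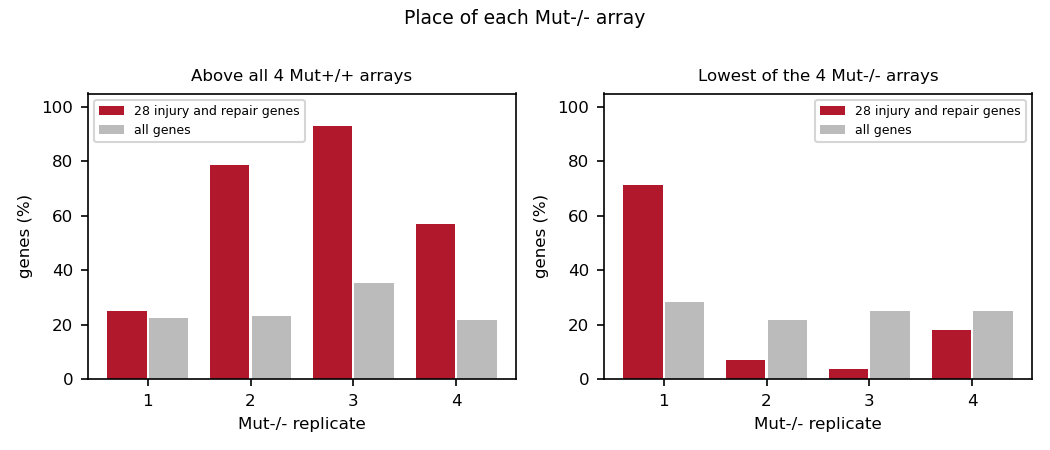
Share of the 28 measured genes (red) and of all genes (grey), in percent, for each of the 4 Mut-/- replicates. The left panel counts genes above all 4 Mut+/+ arrays, where the red bars are 25%, 78.6%, 92.9% and 57.1%, and the right panel counts genes for which that replicate is the lowest Mut-/- array, where replicate 1 reaches 71.4%.

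The genes with the highest single values did not share 1 array. Timp1, Fgb, Vim, Cp, S100a6, Plaur and Anxa1 peaked on replicate 2. Krt20, Krt19, Krt18, Krt8, Krt7, Tnfrsf12a, Cd44, Lgals3, Anxa2, Anxa3, Sox9, Sox4, Il34, Hbegf, Pdgfb, Clu, Fga and Fgg peaked on replicate 3, among them all 5 keratins and both Sox factors. Vcam1, Tmsb10 and Cd24a peaked on replicate 4. Lcn2, the gene of the injury marker lipocalin-2, read 8.35, 11.29, 11.33 and 9.69 on Mut-/- replicates 1 to 4, against 7.01 to 7.38 in Mut+/+ kidneys, and was thus also lowest on replicate 1. On the Mut+/- arrays Lcn2 read 7.76 to 8.31, above every Mut+/+ array and close to Mut-/- replicate 1 at the top. Havcr1 read 8.41, 8.18, 9.35 and 7.47 on Mut-/- replicates 1 to 4, against 6.06 to 6.60 in Mut+/+ kidneys, and was lowest on replicate 4. On Mut+/- replicates 3 and 4 Havcr1 read 8.86 and 8.70, inside the Mut-/- range, and on replicates 1 and 2 it read 6.25. The growth regulator Myc read 8.71, 8.01, 8.23 and 8.33 on Mut-/- replicates 1 to 4 and was highest on replicate 1. Its Mut+/+ arrays read 7.26 to 7.56.

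Cell type markers are set beside these patterns as mean levels of lists of markers. On Mut-/- replicates 1 to 4 the 12 myeloid markers averaged 7.68, 8.46, 7.87 and 8.22, against 7.63 to 7.84 in Mut+/+ kidneys. The 4 platelet markers averaged 6.86, 8.07, 7.0 and 6.89 there, against 6.78 to 6.94 in Mut+/+ kidneys. Replicate 2, on which Timp1, Fgb and Vim were highest, was thus highest for both. The proximal tubule markers averaged 12.38, 12.35, 12.05 and 12.45, against 12.35 to 12.43, and the 8 endothelial markers averaged 9.24, 9.24, 8.86 and 9.24, against 9.38 to 9.53. Replicate 3, on which the keratins were highest, was lowest for both of these lists. It was also the lowest Mut-/- array for thick ascending limb (10.96), collecting duct (9.25), fibroblast and pericyte (8.1) and lymphocyte (6.28) markers. For podocyte, myeloid, platelet and hepatocyte markers another Mut-/- array was lowest. In the fit with array weights, Mut-/- replicate 3 had the lowest weight of the 12 arrays, 0.39. The 7 urothelial markers, which include Krt5 and belong to cells rich in Krt7, Krt19 and Krt20, averaged 7.69 on Mut-/- replicate 3 and 7.84 to 8.01 on the other Mut-/- arrays, against 7.65 to 7.98 in Mut+/+ kidneys. The part of these cell types in the results was not tested.

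By single genes, Mut-/- against Mut+/+ kidneys had 2 myeloid markers called higher and 1 lower of 12. Beside this and the counts that follow, 2.96% of all genes were called higher and 6.69% lower. Lyz2, the gene of lysozyme, differed by 1.27 (SE 0.33, limma adjusted p = 0.0281), and Cd68, a lysosomal protein of macrophages, by 0.65 (SE 0.18, limma adjusted p = 0.0342), while the lower gene was Csf1r. Lyz2 was lost without Mut-/- replicate 2 or 4 or Mut+/+ replicate 2, 3 or 4, and Cd68 without Mut-/- or Mut+/+ replicate 2, 3 or 4, with adjusted p-values of up to 0.0847 and 0.111. Of 8 endothelial markers 3 were lower: Emcn (-0.62), Ehd3 (-0.57) and Cdh5 (-0.38), the last lost without Mut-/- replicate 3 or Mut+/+ replicate 1 or 2 (adjusted p up to 0.0644). Of 10 proximal tubule markers 2 were lower, Fbp1 (-0.37, lost without Mut+/+ replicate 4 at an adjusted p of 0.0503) and Cubn (-0.36). Of 4 podocyte markers 2 were lower, Podxl (-0.40) and Nphs1 (-0.27), and Nphs1 stood at -0.10 and was not called with its probe sets averaged (adjusted p = 0.37). Acta2 was the 1 lower gene of 8 fibroblast and pericyte markers (-0.59), and Aqp3 the 1 higher gene of 8 collecting duct markers (0.30). None of the 5 thick ascending limb, 7 urothelial, 6 lymphocyte, 4 platelet and 8 hepatocyte markers was called by limma in this comparison.

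A separate list of 36 further injury, dedifferentiation and repair genes, measured of 43 listed, had 5 called higher and 2 lower. Of all genes 2.96% were called higher and 6.69% lower. The median difference of the list was 0.13, beside 0.22 for the 28 genes and 0.00 for all genes. Named here are the 3 called genes with the largest differences, which were all higher, and the 2 lower genes had smaller differences. Lcn2 differed by 2.95 (SE 0.49, limma adjusted p = 0.00272), Havcr1 by 2.05 (SE 0.56, limma adjusted p = 0.0359) and the growth regulator Myc by 0.88 (SE 0.12, limma adjusted p = 0.000807). The Havcr1 call was lost without Mut-/- replicate 1, 2 or 3 or any Mut+/+ array (adjusted p up to 0.097). It was also lost with array weights (limma adjusted p = 0.0923) and a trended robust prior (limma adjusted p = 0.094).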

How the data were processed

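Total RNA of whole kidneys was measured on 12 Affymetrix MoGene 1.0 ST arrays, and groups came from the sample titles. Values were deposited on a log2 scale for each probe set. Per the submitters' processing notes they were made by RMA with version 1.2.1 of Affymetrix Expression Console. RMA removes background, gives the single probes of every array the same distribution and then combines the probes of a set, and it compresses differences near background. The combined values need not share a distribution. The sample descriptions name a mouse array and the labelling text a human array of the same series, and the probe sets matched mouse genes. Of 35552 probe sets, 21785 carried a single gene symbol in the platform annotation and the other 13767 were left out. RefSeq names matched 21694 and changed 0 symbols. The brightest probe set on average stood for its gene, which gave 19934 genes. How far probes of keratins, annexins, S100 genes and thymosins also bind related transcripts was not tested, and the sources used here do not give the genome build of the probe sets.

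Tests used limma 3.58.1 under R 4.3.3 (lmFit, eBayes, 9 residual and 4.408 prior degrees of freedom), two-sided, with all 12 arrays in 1 fit and Benjamini-Hochberg adjustment over all genes of each comparison. The fit was tested on simulated data. P-values measure the spread between the arrays, 1 per mouse as far as the labels say, and precision is limited by their number. That spread is pooled over the 3 groups, so the arrays of the group not compared also affect each p-value. The labels name no batch, and the numbers in the sample descriptions run group by group, so order and genotype cannot be told apart. The members and the lists of partners, further injury genes, families and cell type markers were chosen with earlier results of these data known. Named are all members, up to 3 called genes of each list with the largest differences between Mut-/- and Mut+/+, and Mmut, Lcn2 and Havcr1. Alternatives were a block for the replicate number, leaving out each array, a group mean of at least 6, averaged probe sets, array weights, a trended robust prior, only the compared groups, median centring, quantile normalisation and a 1.5-fold threshold. Promoter windows came from RefSeq on GRCm38.p6. Figures used Python 3.11.15 with matplotlib 3.10.9.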

Additional observations from a re-analysis of the deposited data

Results flagged for a closer look

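In 4 of the 84 combinations of gene and group, a single array lay apart from the other 3 by more than Dixon's critical share of the range. Chance flags about 1 in 20 such groups, and over all genes 5.54% of groups had such an array. Sox9 read 7.84 on Mut-/- replicate 3 and 7.55 to 7.58 on the other Mut-/- arrays. Krt8 read 10.73 on Mut+/- replicate 2 and 10.94 to 10.97 on the other Mut+/- arrays. Vim read 10.51 on Mut+/+ replicate 1 and 10.26 to 10.28 on the other Mut+/+ arrays. Plaur read 7.79 on Mut+/+ replicate 3 and 7.51 to 7.53 on the other Mut+/+ arrays.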

How the results depend on the processing

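The number of the 28 genes called higher in Mut-/- than in Mut+/+ kidneys was 6 and ranged from 1 to 8 as single arrays were left out, with 1 without Mut-/- replicate 2 or Mut+/+ replicate 3 or 4. It was 3 with only the compared groups in the fit, 0 at a threshold of 1.5-fold, 5 with the replicate block and 5 to 7 under the remaining alternatives. Against Mut+/- kidneys the count of 1 ranged from 0 to 5 as arrays were left out, with 5 without Mut-/- replicate 1 and 0 without Mut+/- replicate 3 or 4. It was 2 with the replicate block (S100a6 and Anxa2), 3 with array weights, 0 with only the compared groups and 0 at 1.5-fold. The other 4 counts were 0 under every alternative run. Of 560 alternative values of single genes between Mut-/- and Mut+/+, 43 lost a call, 11 gained one and 0 turned a called direction, while Clu, Cp, Fga and Fgb, none of them called, changed sign in 1, 2, 1 and 3 alternatives. Tmsb10 was called under each of these alternatives, although its 1.39-fold difference is below the 1.5-fold threshold. Cd44 was lost with array weights (adjusted p = 0.0656), a trended robust prior (0.0685), only the compared groups (0.0627) and quantile normalisation (0.0503). Anxa2 and Lgals3 were lost with only the compared groups (adjusted p = 0.0562 and 0.0767), and S100a6 was lost there against Mut+/- (0.0599). Krt8 gained a call with the dim filter (0.0466), the trended prior (0.0443) and quantile normalisation (0.0399), and Cd24a with quantile normalisation (0.0372). Over all genes the split of higher and lower calls between Mut-/- and Mut+/+ was 591 and 1334, and 829 and 1098 after quantile normalisation. It was 363 and 791 with only the compared groups, and 327 and 692 without Mut+/+ replicate 4. The labels do not say whether replicate numbers pair the samples. Deviations of samples with the same number correlated at -0.239 to 0.168, with 1 of 12 pairs above 0.1. Those with other numbers correlated at -0.201 to 0.263, with 10 of 36 pairs above 0.1. Such correlations cannot settle whether a litter or day was shared. Every member kept its side of the threshold between Mut-/- and Mut+/+ under the block except Lgals3 (adjusted p = 0.0713). Of the other named genes, Mmp14 (adjusted p = 0.0798), Egfr (0.0646) and Cd68 (0.0527) also lost their calls between Mut-/- and Mut+/+ under the block. With only the compared groups, Csf1r (limma adjusted p = 0.0538), Mmp14 (0.0812), Lgals1 (0.0794), Cdh5 (0.0622), Cd68 (0.0724) and Egfr (0.0923) lost theirs. Lyz2 (limma adjusted p = 0.0759) and Cd68 (0.064) were lost with the trended robust prior, and Egfr (0.0746) with quantile normalisation. The causes of these changes were not tested. With 4 arrays per group, the calls of 5 of the 6 genes against Mut+/+ kidneys depended on single arrays, Tmsb10 being the exception. Against Mut+/- kidneys Tmsb10 differed by 0.18 and was not called (limma adjusted p = 0.334). Its Mut+/- kidneys stood 0.30 above Mut+/+ kidneys, also not called (limma adjusted p = 0.213). Genes that are dim on the array have compressed differences.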
